A study of Esox lucius with 13 samples.

Results

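The testis library of a northern pike (Esox lucius) was set against the libraries of the other 12 tissues of the same fish, over all transcripts of the assembled reference. Transcripts with at least 10 fragments in testis were described, and 16605 of the 38696 transcripts (42.9%) met this rule. The other 22091 had 1 to 9 fragments in testis (8087 transcripts) or none (14004 transcripts). All 13 libraries came from 1 wild juvenile male that was frozen on dry ice before it was sampled. Beside testis they cover kidney, head kidney, spleen, liver, stomach, gut, gill, heart, muscle, nose, eye and brain. The study's methods give hind gut for gut, and a supplementary table has pyloric caecum where the label says stomach. There was 1 library per tissue and no treatment, so no test between tissues was possible and every value below describes these libraries of this fish.

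In a fish testis, germ cells multiply by mitosis, pass through meiosis and mature into sperm inside cysts formed by Sertoli cells, while Leydig cells between the cysts make androgens. Meiosis needs the synaptonemal complex, a protein ladder that holds paired chromosomes together. The label does not give a stage of maturity.

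A fragment is a read pair mapped to a transcript, and FPKM divides fragments by the transcript's length and by the mapped fragments of the library, so that levels of different transcripts can be compared per length. Testis had 19181611 mapped fragments, and the other libraries had 17240414 (brain) to 22300517 (liver). A ratio is the testis level over that of the highest other tissue, with its exact 95% interval. These intervals and those of the FPKM values cover counting error only. In counts of transcripts past a fold and in list values, a library with fewer than 3 fragments was given a floor of 3. In bulk tissue, fewer cells of a type and less RNA per cell cannot be told apart. A name was available for 952 transcripts (2.46%), of which 300 had at least 10 fragments in testis, and names rest on protein similarity to other species.

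Testis stood out by many transcripts at moderate levels rather than by a few at very high ones. Transcripts at least 5-fold above the highest other tissue, called testis-leading here, numbered 1265, which is 7.62% of the 16605, and 5884 (35.4%) were highest in testis. Brain had 2705 such leading transcripts by the same rule, eye had 598, and the other 10 tissues had 44 (head kidney) to 327 (gut). With median-of-ratios size factors in place of library totals, testis had 978, against 1394 in brain and 38 (head kidney) to 520 (muscle) in the other 11. At least 10-fold higher in testis were 563 transcripts, at least 20-fold 181 and at least 50-fold 6. The largest ratio, with the floor, was 82.7. The median ratio of the leading transcripts was 9.15, with quartiles of 6.50 and 14.6. The transcripts on either side of the threshold were dense, with 114 between 5 and 5.5 and 195 between 4.5 and 5. Just inside it was a transcript of transforming acidic coiled-coil-containing protein 3 at 5.01. Just outside it were the Sjoegren syndrome nuclear autoantigen 1 homolog at 4.91 and DNA -methyltransferase 1, which copies DNA methylation after replication, at 4.86. These last 3 were chosen for their place at the threshold.

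The leading transcripts held 22.9% of all testis fragments, and their share of the transcripts grew with abundance. Of the 2816 transcripts with 10 to 29 testis fragments 2.31% were leading, against 26.0% of the 1563 with at least 3000. The rule fixes part of this rise, since the floor of 3 fragments caps the ratio where testis has few fragments. A transcript with 16 testis fragments and none elsewhere reached only 4.79 with the floor. The leading transcripts were also shorter, with a median length of 1521 bases against 2495 bases for the other transcripts read in testis. Of the transcripts under 500 bases 20.3% were leading, and of those of at least 4000 bases 2.54%. This was not particular to testis, since leading transcripts were shorter than all transcripts read in the same library in every tissue. Their median length ran from 791 bases in nose to 1756.5 in liver, and only in liver was it above that of testis. The 10 transcripts with the highest testis FPKM held 2.80% of the fragments. Ranked by fragments, the top 10 held 3.95% in testis, against 11.8% (spleen) to 57.5% (stomach) in the other tissues. The most abundant transcript held 0.648% of the fragments in testis, against 2.52% to 17.7% elsewhere. To reach 50% of the fragments took 1092 transcripts in testis, against 780 in spleen and 6 in stomach, the ends of the range of the other 12 tissues.

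**Figure D1:**
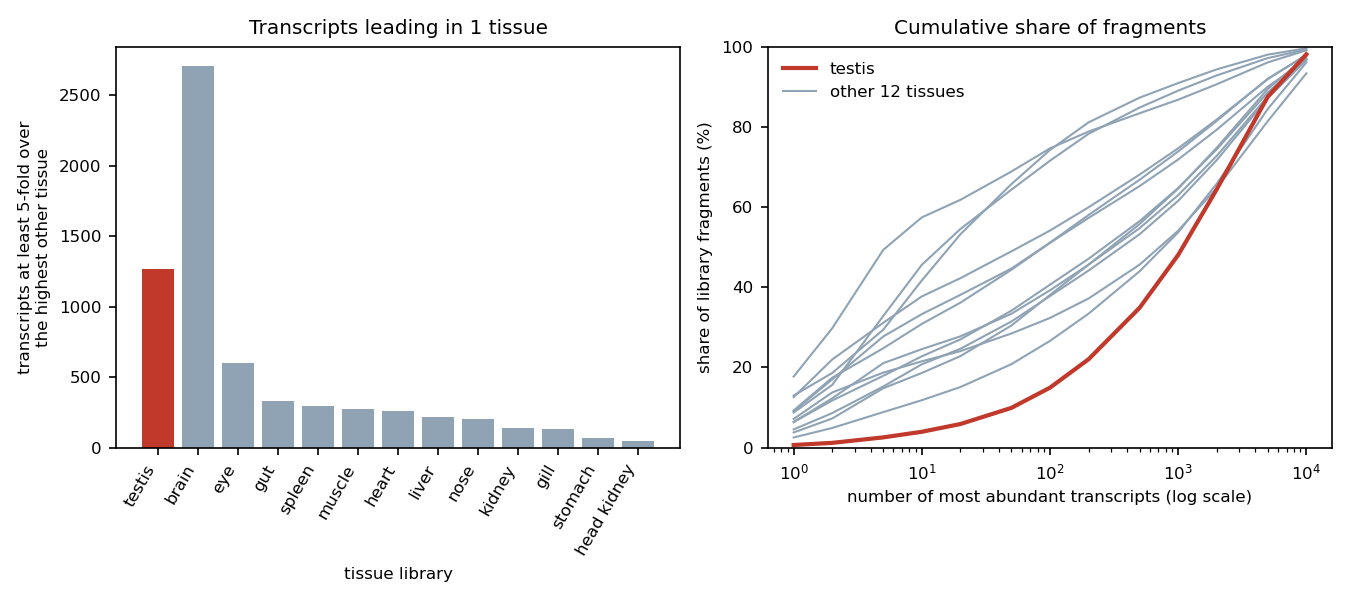
Left, the number of transcripts at least 5-fold over the highest other tissue in each of the 13 libraries, with testis in red (1265) and brain the highest of the other 12 (2705). Right, the share of each library's fragments held by its most abundant transcripts, where testis reaches 15.0% with 100 transcripts and the other libraries 26.6% to 74.7%.

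The tissue label was checked against germ cell markers. Among 4 named transcripts for meiosis, 2 were testis-leading, and both code for the central element of the synaptonemal complex. The first, Testis-expressed sequence 12 protein, had 46 testis fragments (4.84 FPKM, 3.55 to 6.46) and none in the other 12 libraries, which makes it at least 13.8-fold higher in testis against the floor of 3 fragments per library, with a lower end of the exact interval at 10.8. The second, Synaptonemal complex central element protein 3, was read at 8.98 FPKM in testis (52 fragments), against 1.17 in kidney, 0.347 in gill, 0.187 in nose and 0 in the other 9 tissues, a ratio of 7.65 (3.46 to 19.97). With size factors the ratios were 3.15 and 3.56, so that neither stayed testis-leading. The other members were near 0 in testis. Synaptonemal complex protein 2, of the lateral elements, had 3 testis fragments and 22 in brain, and the Meiosis expressed gene 1 protein homolog, which is needed for sperm formation in mice, had 1 testis fragment and 76 in brain. No named transcript matched the piwi, nanos, tudor, DAZ, argonaute or maelstrom families. Named meiosis markers above 10 testis fragments were thus only this pair, each with under 60 fragments.

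Of 8 transcripts with sperm, testis or gamete in their names, a list by wording and not by function, 5 had at least 10 testis fragments. All 5 were highest in testis and 4 were testis-leading, beside 35.4% and 7.62% of all transcripts with at least 10 testis fragments. Among the 4 is Testis-expressed sequence 12 protein, which is also counted for meiosis above and was not testis-leading with size factors. The most abundant were a pair of transcripts for Zona pellucida sperm-binding protein 3, in mammals the egg-coat glycoprotein to which sperm bind. The first had 585 FPKM in testis (577 to 594), against 23.02 in kidney, 6.96 in head kidney, a median of 0.0870 over the 12 tissues and 0 in eye, gill, liver, muscle and stomach. Its ratio was 25.4 (23.6 to 27.4). The second had 428 FPKM in testis (421 to 436), against 22.4 in kidney, 3.35 in head kidney and at most 0.688 elsewhere, a ratio of 19.1 (17.7 to 20.7). Both were thus far above every other tissue, and both were next highest in kidney and then in head kidney. The files do not say whether the pair are separate genes, so shared reads between them cannot be judged. No list used here separates male from female germ cells. The sperm and testis list mixes names of an egg-coat protein with names of sperm proteins. Its egg-coat pair was abundant in testis, while 3 other members, barely read in any library, had 0 testis fragments. What these values say about the sex of the germ cells was not tested.

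Protein GAMETE EXPRESSED 1, named after a nuclear membrane protein of plant gametes, had 43.1 FPKM in testis (41.2 to 45.1), against 3.26 in kidney, 0.891 in head kidney and a median of 0.211, a ratio of 13.2 (11.2 to 15.7). Testis-expressed sequence 36 protein was low throughout, with 16 fragments in testis (1.72 FPKM), 5 in kidney and a ratio of 3.30 (1.15 to 11.5). The 3 remaining members, Testis-specific serine/threonine-protein kinase 1, Sperm flagellar protein 2 and Sperm-associated antigen 1, had 0 testis fragments. They had at most 4 fragments in any other library and are 205 to 411 bases long, so a level of up to 3 fragments in testis is not excluded by the counts.

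Cell division transcripts were among the most abundant of the named transcripts in testis. Of 5 in the cell cycle list, 4 were testis-leading and all 5 were above the median of the other tissues. Over all transcripts measured in the same way 7.62% were testis-leading and 48% were above that median. G2/mitotic-specific cyclin-B2, the cyclin that drives entry into M phase, had 1651 FPKM in testis, against 78.5 in kidney, 19.7 in head kidney, a median of 2.52 and 0.0760 in liver. Securin, an inhibitor that keeps sister chromatids from separating before anaphase, had 933 FPKM in testis (916 to 949), against 72.0 in kidney and 19.2 in head kidney. Its median was 1.89, liver had 0.127, and the ratio was 12.96 (12.1 to 13.8). For both, kidney, head kidney and gut came next and liver was last.

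Cell division cycle-associated protein 7, a chromatin protein of S phase cells, had 339 FPKM in testis (332 to 346), against 18.5 in kidney, 3.08 in head kidney and at most 0.421 elsewhere, a ratio of 18.3 (16.7 to 20.02). Centrosome and spindle pole-associated protein 1 had 6.84 FPKM in testis (6.11 to 7.63), against 1.11 in kidney, 0.888 in brain and 0 in 8 tissues, a ratio of 6.16 (4.59 to 8.40). Centromere protein X was the exception in the list, with 3.57 FPKM in testis (48 fragments) and 4.19 in kidney, a ratio of 0.852 whose interval (0.569 to 1.27) includes equal levels.

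The replication and repair list held 2 transcripts, both highest in testis, beside 35.4% of all transcripts with at least 10 testis fragments. DNA replication complex GINS protein PSF3, a part of the replicative helicase, had 27.2 FPKM in testis (24.9 to 29.6), against 4.55 in kidney, 2.97 in head kidney, 2.43 in nose and a median of 0.599, a ratio of 5.97 (4.77 to 7.53). DNA polymerase alpha catalytic subunit, which starts new strands, had 25.6 FPKM in testis (23.6 to 27.7), against 7.05 in kidney, 3.24 in brain and a median of 1.70, a ratio of 3.63 (3.06 to 4.33) that is under the 5-fold threshold. The single named histone, Histone H2A, gonadal, had 1375 FPKM in testis (1353 to 1398), against 42.5 in kidney, 11.2 in head kidney, 2.25 in gut and 0 in eye, gill, heart and muscle. Its ratio was 32.4 (29.5 to 35.6). Histone genes come in near-identical copies, so reads of other H2A copies may be included.

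Outside these lists, named testis-leading transcripts included the following. Transforming acidic coiled-coil-containing protein 3, which steadies spindle microtubules, had 2 transcripts with 236 and 223 FPKM in testis, against 47.0 and 38.9 in kidney and medians of 2.52 and 1.45. The ratios were 5.01 (4.78 to 5.26) and 5.73 (5.30 to 6.20). Centrosomal protein of 55 kDa, which acts in the last step of cell separation, had 87.5 FPKM in testis (84.2 to 90.8), against 12.4 in kidney, 6.89 in head kidney, 5.17 in nose and 0.0310 in stomach, a ratio of 7.05 (6.34 to 7.85). Tubulin beta-4 chain, a part of microtubules, had 49.0 FPKM in testis (47.2 to 50.7), against 3.38 in liver, 3.33 in kidney and a median of 0.416, a ratio of 14.5 (12.7 to 16.6). With size factors in place of library totals its ratio was 2.56.

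**Figure D2:**
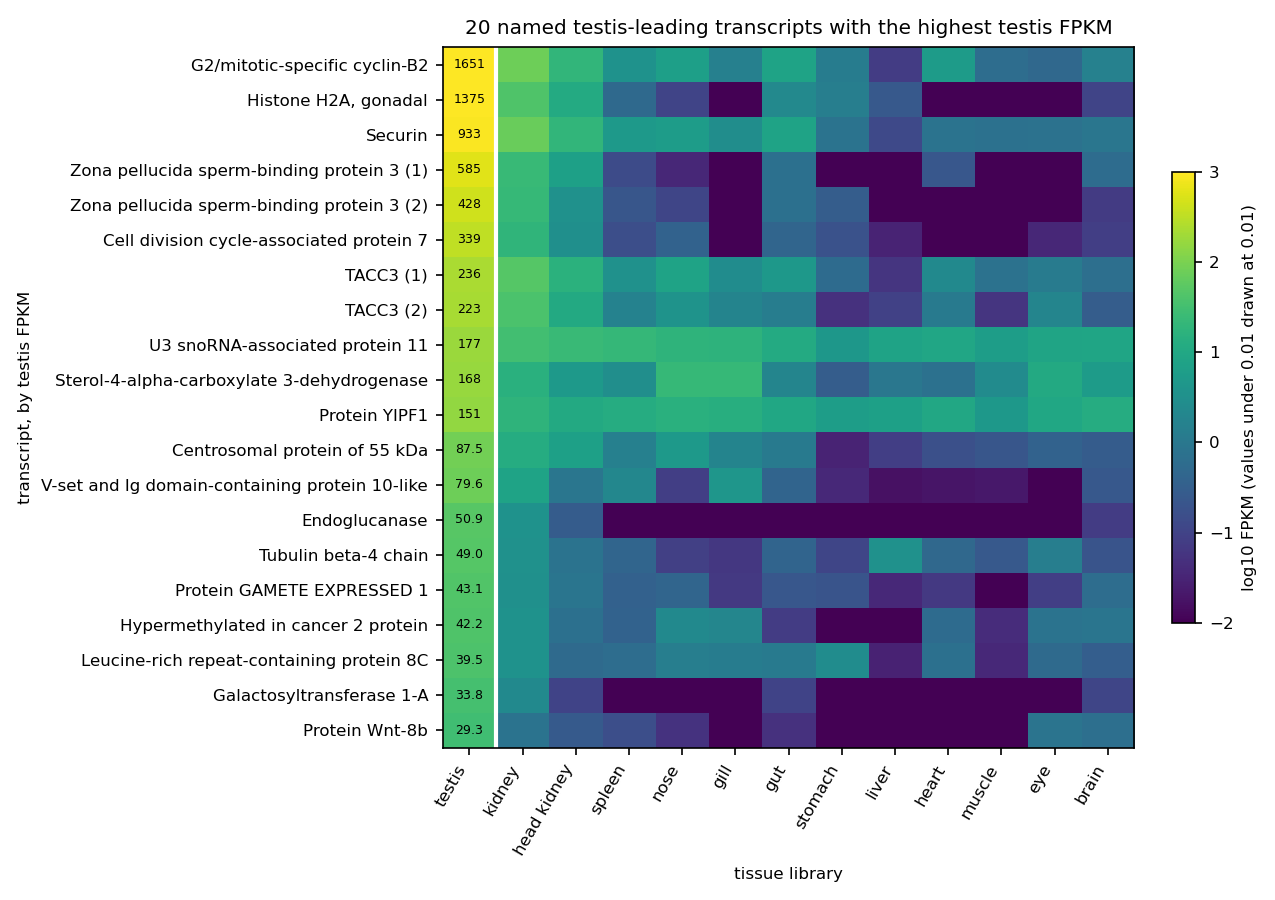
FPKM, on a log10 colour scale, of the 20 named testis-leading transcripts with the highest testis FPKM, 1 row per transcript and 1 column per tissue library, with the testis value printed in the first column. Testis values run from 29.3 for Protein Wnt-8b to 1651 for cyclin-B2, and the kidney column is the brightest of the other 12 in most rows.

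Other named testis-leading transcripts belong to signalling, metabolism and transcription. Protein Wnt-8b, a secreted signal of the Wnt family, had 29.3 FPKM in testis (26.96 to 31.8), against 0.827 in eye, 0.793 in kidney, 0.682 in brain and 0 in 5 tissues. Its ratio of 35.4 (21.9 to 61.3) was the largest of all named transcripts. Unlike most, it was about equally low in eye, kidney and brain. Sterol-4-alpha-carboxylate 3-dehydrogenase, an enzyme of cholesterol synthesis, had 168 FPKM in testis (164 to 172), against 22.5 in gill, 22.2 in nose, 14.9 in kidney and a median of 3.92, a ratio of 7.47 (6.94 to 8.05).

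Protein YIPF1, a Golgi membrane protein, and Probable U3 small nucleolar RNA-associated protein 11, which acts in ribosome assembly, were read in all 12 other tissues. YIPF1 had 151 FPKM in testis, against 17.7 in kidney, a median of 10.4 and 4.55 in muscle, a ratio of 8.56 (8.10 to 9.04) that was 3.93 with size factors. Protein 11 had 177 FPKM in testis, against 30.3 in kidney, a median of 10.2 and 4.41 in the lowest tissue, a ratio of 5.84 (5.45 to 6.26) that was 3.99 with size factors. Both were thus highest in testis under either scaling but testis-leading only with library totals. The opposite pattern was that of Endoglucanase, in other species an enzyme that cuts cellulose, with 50.9 FPKM in testis (47.2 to 54.7), fragments in only 3 other libraries, a median of 0 and a ratio of 14.4 over kidney (10.8 to 19.4).

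V-set and immunoglobulin domain-containing protein 10-like, a membrane protein, had 79.6 FPKM in testis (77.2 to 82.1), against 8.12 in kidney and a median of 0.159, a ratio of 9.81 (8.88 to 10.9). Hypermethylated in cancer 2 protein, a transcriptional repressor, had 42.2 FPKM, against 3.47 in kidney, a ratio of 12.2 (10.5 to 14.2). Leucine-rich repeat-containing protein 8C, a subunit of volume-regulated anion channels, had 39.5 FPKM, against 3.51 in kidney, a ratio of 11.3 (9.21 to 13.9). Glycoprotein-N-acetylgalactosamine 3-beta-galactosyltransferase 1-A, which builds O-linked sugar chains, had 33.8 FPKM, against 2.39 in kidney, a ratio of 14.2 (9.44 to 22.2). In all of these kidney was the next tissue, as it was for 29 of the 44 named testis-leading transcripts. With size factors 27 of the 44 stayed testis-leading. These 44 are 14.7% of the 300 named transcripts read in testis, beside the 7.62% over all, and the named transcripts are not a sample of the reference.

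Among markers of the somatic cells of the testis, Transcription factor SOX-8, which Sertoli cells of mammals make, had 14.7 FPKM in testis (13.3 to 16.2), against 2.50 in kidney, 2.31 in muscle, a median of 0.878 and 0.0710 in heart, a ratio of 5.88 (4.58 to 7.65). Its ratio with size factors was 1.47. The steroid synthesis list held 2 transcripts, and they went opposite ways against the highest other tissue. Against the median of the other tissues both were higher in testis. Estradiol 17-beta-dehydrogenase 1, which makes estradiol out of estrone in mammals, had 50 testis fragments (8.84 FPKM, 6.56 to 11.6) and 2 in kidney, a ratio of 25.7 (6.77 to 218). With the floor of 3 fragments the ratio was 14.98, and with size factors it was 3.42. Cholesterol side-chain cleavage enzyme, the first step of all steroid hormone synthesis, had 13 testis fragments (0.365 FPKM), against 37.1 FPKM in head kidney, which in fish holds the steroid-making interrenal cells, 1.19 in brain and 0.514 in gut. Its ratio was 0.00984 (0.00523 to 0.0169). Neither anti-Muellerian hormone nor the steroidogenic acute regulatory protein was among the names.

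The 2 testis-leading transcripts with the highest testis FPKM had no name. The first, of 404 bases, had 2730 FPKM in testis (2693 to 2767), against 119 in kidney and a median of 0.467, a ratio of 22.96 (21.5 to 24.5). The second, of 2144 bases, had 102713 testis fragments (2498 FPKM), 6707 fragments in the other 12 libraries together and a ratio over kidney of 20.5 (19.9 to 21.1). Of the 100 transcripts with the highest testis FPKM 50 were testis-leading, beside 7.62% of all transcripts with at least 10 testis fragments. Of the same 100, 7 had a name, beside 2.46% of all transcripts. The highest levels in testis therefore belong mostly to transcripts without a name here, as does most of the reference.

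Few transcripts were read in testis and nowhere else. With at least 10 testis fragments and none in the other 12 libraries there were 21, against 171 in brain by the same rule and 1 to 52 in the other 11 tissues. They had 10 to 46 testis fragments and were 224 to 547 bases long, and only Testis-expressed sequence 12 protein among them had a name. By contrast, 571 of the 1265 testis-leading transcripts had fragments in all 12 other libraries, and the median was 11 libraries. Transcripts that mark testis in this fish were thus mostly read at low levels elsewhere too.

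Kidney was the next tissue for 764 of the 1265 testis-leading transcripts (60.4%), followed by brain (142), spleen (99), nose (71) and head kidney (58). Over all 5884 transcripts highest in testis, kidney was next for 30.5%, spleen for 19.1% and brain for 17.6%. To see how even the kidney level was, transcripts with at least 1000 testis fragments and at least 20-fold over each tissue but kidney were taken, 256 in all, without regard to their level in kidney. All 256 had fragments in kidney, with a median of 352 fragments, and in head kidney. Their kidney level was 5.85% of the testis level at the median, with quartiles of 4.52% and 8.39% and a range of 1.21% to 76.3%. For 225 of them (87.9%) it lay within 2-fold of that median, although the counting interval held the median in only 51 (19.9%), so the spread was wider than counting error.

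In head kidney the same 256 transcripts stood at a median of 1.21% of testis (quartiles 0.845% and 2.09%), in gut at 0.254%, in nose at 0.116%, in brain at 0.107% and in spleen at 0.102%. In the other 6 tissues the median was 0.0595% or less, and it was 0 in liver and muscle. The order was kidney, head kidney and then gut, and kidney exceeded head kidney for 255 of the 256, by a median of 4.74-fold (quartiles 3.21 and 5.88). Together they made up 12.01% of the testis fragments, against 0.712% of the kidney fragments and 0.185% of the head kidney fragments. Their level is fixed to be under 5% in every tissue but kidney by the way they were taken. Kidney was left free and had a median of 5.85%, so for most of the 256 it had to exceed head kidney. The place of kidney at the head of the order, and its excess over head kidney, thus follow largely from the rule.

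The 8 named transcripts among the 256 stood in kidney at 3.09% to 17.5% of their testis level. Histone H2A, gonadal stood in kidney at 3.09% of its testis level and in head kidney at 0.815%. For cyclin-B2 the values were 4.76% and 1.19%, for Cell division cycle-associated protein 7 5.47% and 0.909%, and for Protein GAMETE EXPRESSED 1 7.55% and 2.07%. Securin stood at 7.72% and 2.06%, and the shorter transcript of transforming acidic coiled-coil-containing protein 3 at 17.5% and 4.94%. For the pair named Zona pellucida sperm-binding protein 3 kidney was at 3.93% and 5.23%.

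**Figure D3:**
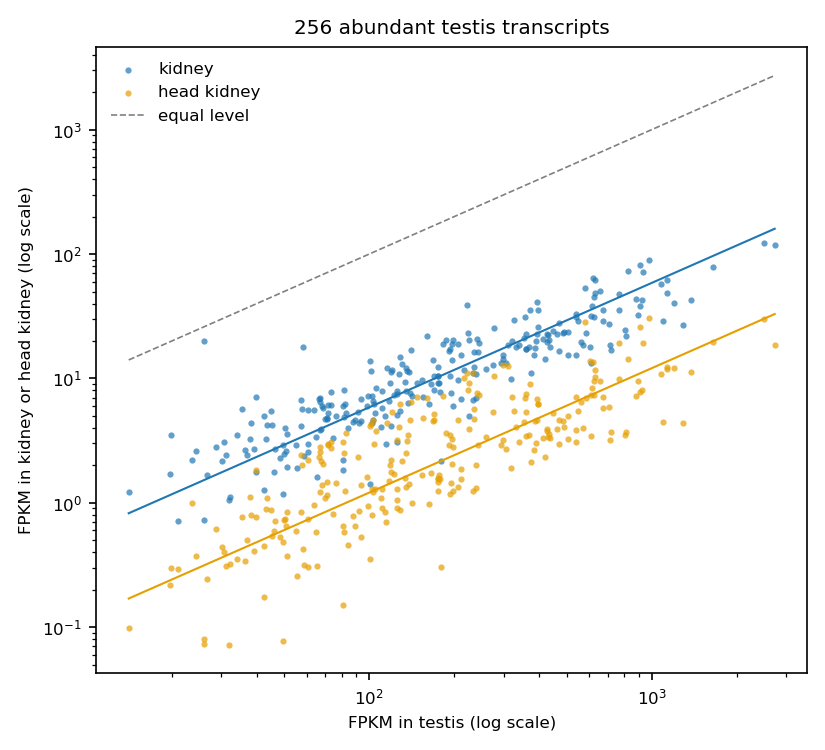
FPKM in kidney (blue) and head kidney (orange) against FPKM in testis, on log axes, for the 256 transcripts with at least 1000 testis fragments and at least 20-fold over each tissue but kidney, where each point is a transcript. Solid lines are at the median levels of 5.85% and 1.21% of testis, and the dashed line marks equal levels.

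The same rule was applied to other pairs of tissues for comparison. Abundant brain transcripts stood in eye at a median of 9.31% of the brain level, with quartiles of 3.57% and 17.9% (310 transcripts), and heart transcripts in muscle at 5.80%, with quartiles of 0.152% and 47.1% (86 transcripts). The upper quartile was 1.86 times the lower for testis transcripts in kidney, 5.003 times for brain transcripts in eye and 309 times for heart transcripts in muscle. Of the 10 pairs with at least 50 transcripts and a median of at least 0.3%, the narrowest was testis transcripts in head kidney (1.83 times, 96 transcripts), a set that by its rule holds only transcripts under 5% of testis in kidney, which limits its spread. Testis transcripts in kidney came next, and then liver transcripts in head kidney (2.26 times). What sets the kidney level of testis transcripts was not tested. In the other direction, 17 named transcripts of kidney tubule transport and renin summed to 2.02 FPKM in testis, against 74.1 in kidney and a median of 6.62 over the 12 tissues. Most of the kidney sum came from a transcript of facilitated glucose transporter member 9 (44.1 FPKM) and from Renin (23.7 FPKM), which had 1 and 0 testis fragments. Other members, such as urea transporter 2 and the sodium/potassium pump subunits alpha-1 and alpha-2, were highest in brain or gill and do not mark kidney here. Of the 17 members 11 (64.7%) had no fragment in testis, against 36.2% of all transcripts and 43.5% of all named ones. Only 4 of the 17 had at least 100 fragments in the 13 libraries together.

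Gene lists were compared with the median of the other 12 tissues, over members with at least 100 fragments in the 13 libraries together. Of all 24212 such transcripts 11627 (48%) were above that median in testis, and their median log2 ratio was -0.03, with quartiles of -1.32 and 1.76. The highest lists were histones (12.06, 1 transcript), sperm and testis (11.89, 3 transcripts, which are the Zona pellucida pair and Protein GAMETE EXPRESSED 1), cell cycle (8.94, 5 transcripts), and replication and repair (4.71, 2 transcripts). The sperm and testis value thus holds none of the members with 0 testis fragments. The 2.07 for steroid synthesis is Cholesterol side-chain cleavage enzyme and the -0.12 for meiosis is the Meiosis expressed gene 1 protein homolog, 1 transcript each, since the other members had under 100 fragments in all. The list medians were 1.94 for ubiquitin and proteasome, 1.27 for axonemal dynein and cilia, -0.03 for neuron and synapse, -0.06 for kidney tubule transport, -0.08 for blood and immune and -0.10 for muscle contraction. In the lists just under 0, many members had under 3 fragments in testis and in the median other tissue. There the floor sets the ratio, so these medians do not show equal levels. The median of all transcripts, -0.03, is also such a floor value. With size factors the median of all transcripts was -0.53, and the lists moved as well. They were then at 10.56 for histones, 10.37 for sperm and testis, 8.23 for cell cycle and 4.43 for replication and repair. Axonemal dynein and cilia was at 0.02, steroid synthesis at 0.99, ubiquitin and proteasome at 1.44, neuron and synapse at -0.63, muscle contraction at -0.56, blood and immune at -0.93, kidney tubule transport at -0.95 and meiosis at -1.37. Where members stand at the floor, this shift comes from the scaling of the floor and is not a measured level. The lists were chosen with results of these data known, and their counts describe the named transcripts only.

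In the ubiquitin and proteasome list 4 of 5 measured members were above the median of the other tissues, beside 48% of all measured transcripts. Ubiquitin-conjugating enzyme E2 A, which attaches ubiquitin to histones, had 233 FPKM in testis (228 to 239), against 109 in spleen and a median of 60.8, a ratio of 2.15 (2.05 to 2.25). E3 ubiquitin-protein ligase TRIM33, a regulator of TGF-beta signalling, was testis-leading at 25.1 FPKM, against 2.91 in kidney, a ratio of 8.63 (6.95 to 10.8). 26S proteasome non-ATPase regulatory subunit 12 was not highest in testis, with 33.2 FPKM, against 57.7 in kidney. E3 ubiquitin-protein ligase SIAH2 had 13 testis fragments and a ratio of 0.821 (0.359 to 1.85).

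All 4 measured zinc finger proteins were above the median of the other tissues, beside 48% of all measured transcripts. The list median was 1.67. Zinc finger matrin-type protein 5, a part of the minor spliceosome, had 91.4 FPKM in testis, against 29.0 in kidney and a median of 20.6, a ratio of 3.16 (2.90 to 3.44). Juxtaposed with another zinc finger protein 1 had 29.6 FPKM, against 8.57 in brain, a ratio of 3.45 (2.75 to 4.35). Zinc finger protein 234 had 7.30 FPKM, against 5.33 in brain, a ratio of 1.37 (1.19 to 1.58). Zinc finger protein SNAI2 had 3.69 FPKM, above its median of 1.78 but below 14.3 in nose, a ratio of 0.258 (0.208 to 0.316). Zinc finger and BTB domain-containing protein 17, which acts with MYC in mammals, was not among the measured 4, with under 100 fragments in all. It had 64 testis fragments and 8 in kidney, a ratio of 8.24 (3.94 to 19.9). With size factors this ratio was 4.38.

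The list for axonemal dynein and cilia, the machinery of beating cilia and of the sperm tail, divided by protein. Of its 29 transcripts 8 had at least 10 testis fragments and 11 had none, and the list summed to 61.1 FPKM in testis, against 75.6 in kidney and a median of 3.98. Most of the testis sum came from Enkurin domain-containing protein 1, a microtubule protein of the centrosome and cilium, at 28.2 FPKM, against 10.04 in kidney, a ratio of 2.80 (2.38 to 3.32), and Transmembrane protein 231, of the gate at the base of cilia, at 22.9 FPKM, against 5.10 in kidney, a ratio of 4.49 (3.79 to 5.36). The dyneins themselves were low in testis. The highest were a pair named Dynein beta chain, ciliary, with 39 testis fragments (2.32 FPKM), a ratio of 11.7 (3.71 to 59.1; 2.67 with size factors) over 3 fragments in brain, and with 11 fragments (2.08 FPKM), a ratio of 3.30 (0.871 to 18.4). Of the 8 with at least 10 testis fragments these 4 were highest in testis, beside 35.4% of all such transcripts.

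Summed by list, markers of other cell types were below the tissue they mark, but not below the typical tissue in every list. Single members could still be highest in testis. Of 52 neuron and synapse transcripts 27 (51.9%) had no testis fragment, beside 36.2% of all transcripts and 43.5% of all named ones, and 7 had at least 10. They summed to 18.5 FPKM in testis, against 327 in brain and a median of 7.23 over the 12 tissues. Metabotropic glutamate receptor 6 was testis-leading, with 78 testis fragments (5.11 FPKM) and 7 in kidney, a ratio of 11.5 (5.31 to 29.5). Disks large-associated protein 2 (2.58 FPKM), Gamma-aminobutyric acid receptor subunit rho-1 (2.43) and Synapse differentiation-inducing gene protein 1 (1.59) were below their highest other tissue. Of 14 muscle contraction transcripts 12 (85.7%) had no testis fragment, beside the same 36.2% and 43.5%. Only 3 of the 14 had at least 100 fragments in the 13 libraries together, and some of the 12 were barely read anywhere. The 14 summed to 2.08 FPKM in testis, against 256 in muscle and a median of 6.31. Of these sums 1.82 in testis and 227 in muscle came from trimeric intracellular cation channel type A. Of 18 blood and immune transcripts 13 (72.2%) had no testis fragment, both immunoglobulin chain transcripts among them, and 10 of the 18 had at least 100 fragments in all. They summed to 11.6 FPKM in testis, against 22.04 in spleen and a median of 10.9, so testis was near the middle of the other tissues. Interleukin-17F, a cytokine, was highest in testis at 5.59 FPKM (4.40 to 6.99), against 1.20 in nose, a ratio of 4.67 (2.66 to 8.75). GTPase IMAP family member 4 had 4.17 FPKM, against 6.98 in nose, and Toll-like receptor 6 had 1.03, against 9.62 in spleen. No haemoglobin or troponin was among the names.

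**Figure D4:**
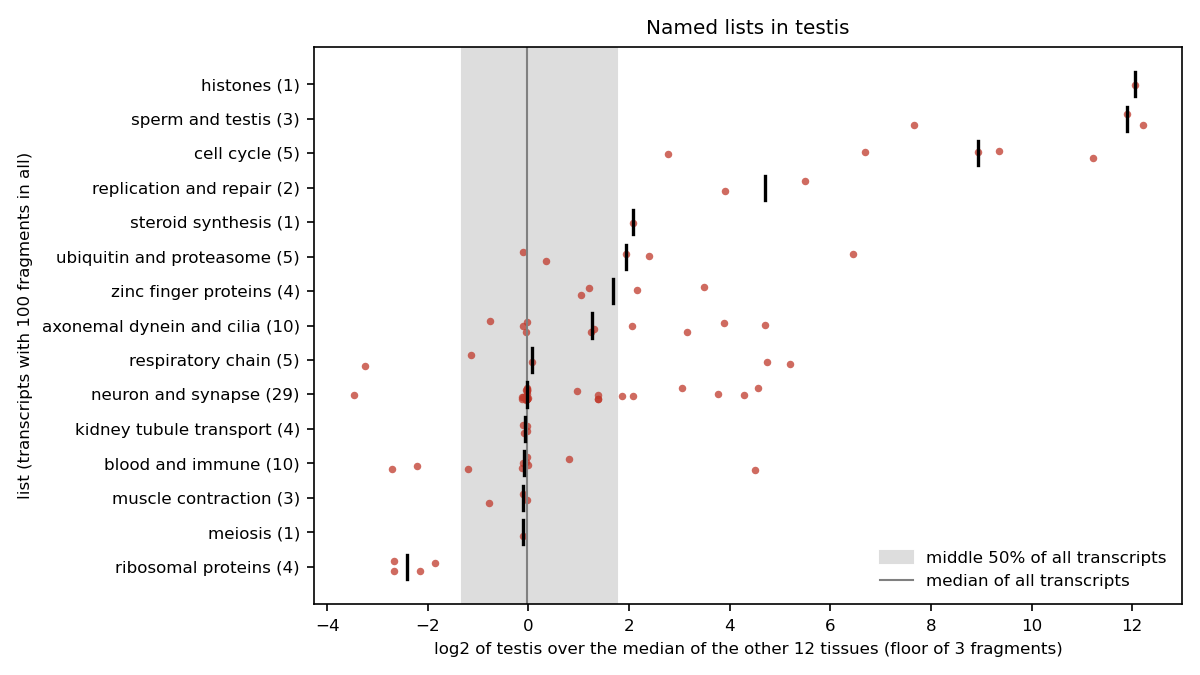
The log2 ratio of testis over the median of the other 12 tissues, with a floor of 3 fragments, for members of 15 lists with at least 100 fragments in the 13 libraries together, where each point is a transcript and the black bar is the list's median. The grey band and line show the quartiles and median (-1.32, -0.03 and 1.76) of all 24212 such transcripts, and the floor draws transcripts read in few tissues towards 0.

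Ribosomal proteins were the list farthest below the other tissues in testis, with a median log2 ratio of -2.41. None of the 4 was above the median of the other tissues, beside 48% of all measured transcripts. 40S ribosomal protein S27 had 92.5 FPKM in testis (86.9 to 98.4), against a range of 160.1 in brain to 1129 in head kidney and a median of 586. 40S ribosomal protein S14 had 999 FPKM in testis (981 to 1017), against 1031 in brain, a median of 3594 and 5436 in head kidney. For both of these testis was the lowest library, although for S14 brain lay close to it. 60S ribosomal protein L39 had 146 FPKM in testis, against 78.9 in brain, a median of 650.4 and 1198 in stomach, and 60S ribosomal protein L22 had 34.3, against 24.2 in eye, a median of 219 and 414 in head kidney. Near-identical copies of ribosomal protein genes could take part of these reads.

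The respiratory chain list was mixed, with 3 of 5 transcripts above the median of the other tissues, beside 48% of all measured transcripts. Its list median was 0.07, which was -0.30 with size factors. ADP/ATP translocase 2, which exchanges ADP and ATP across the inner mitochondrial membrane, was lowest in testis at 777 FPKM (767 to 786), against 850.3 in brain, a median of 1721 and 3886 in heart. Electron transfer flavoprotein subunit beta had 43.8 FPKM in testis, against 169 in liver and a median of 41.8. A pair of transcripts for Succinate dehydrogenase flavoprotein subunit, of respiratory complex II, were higher in testis, with 18.7 and 10.1 FPKM, against 6.02 and 3.70 in brain, ratios of 3.11 (2.12 to 4.67) and 2.73 (1.76 to 4.35). Cytochrome c oxidase subunit 5B had 74 testis fragments (3.25 FPKM, 2.55 to 4.08), against a median of 31.1 and 491 in heart, and head kidney, at 4.31, was only 1.33-fold above testis (0.969 to 1.82).

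Transcripts read in every other tissue could also be low in testis. Of 5820 transcripts with at least 50 fragments in each of the other 12 libraries 715 were lowest in testis, 407 (6.99%) were at least 2-fold below the lowest other tissue and 155 (2.66%) at least 5-fold. By the same rule liver had 234 at least 5-fold below, muscle 22, stomach 16 and the other 9 tissues 0 to 3. The count depended on the scaling. With size factors 382 were at least 5-fold below in testis, against 17 in liver and 0 to 5 in the other 11 tissues. Of the 155, 55 had under 10 testis fragments and none had 0.

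Few of these had names. GTP cyclohydrolase 1 feedback regulatory protein, which regulates the synthesis of tetrahydrobiopterin, had 6 testis fragments (0.120 FPKM, 0.0441 to 0.261), against 2.80 FPKM in head kidney, a median of 7.92 and 36.5 in spleen. It was 23.3-fold below the lowest other tissue (10.4 to 64.7). Retinoic acid receptor RXR-gamma-A, a nuclear receptor that pairs with other receptors, had 6 testis fragments (0.224 FPKM), against 2.44 FPKM in gill, a median of 6.76 and 24.4 in gut, 10.9-fold below the lowest (4.74 to 30.8). Cornifelin, a protein of cornified skin in mammals, had 21 testis fragments (0.931 FPKM), against 4.04 in muscle, a median of 22.1 and 117 in spleen, 4.34-fold below (2.66 to 7.39). For these 3 no other library overlapped the testis interval, which follows largely from their choice as the named transcripts farthest below. They are the 3 of 52 named transcripts tested that were at least 2-fold below the lowest other tissue, beside 6.99% of all 5820 tested. Leukocyte elastase inhibitor, a serine protease inhibitor, had 3.09 FPKM in testis, against 4.12 in brain and a median of 24.1, 1.33-fold below (1.01 to 1.75).

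**Figure D5:**
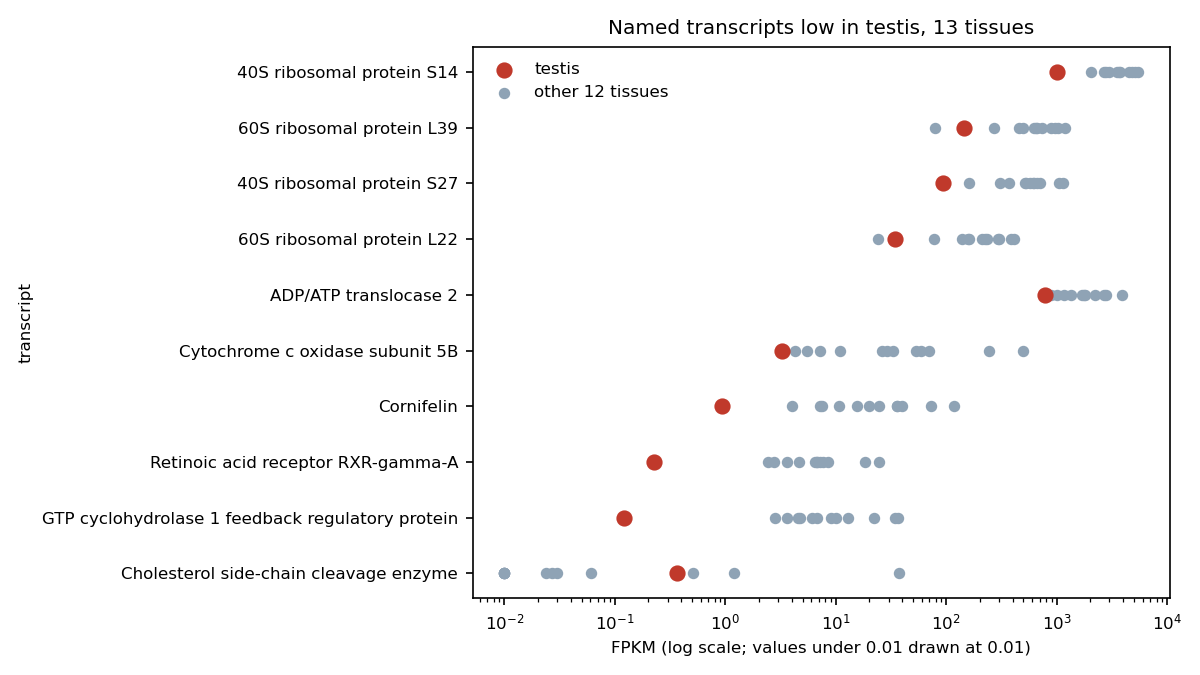
FPKM on a log axis of 10 named transcripts in testis (red) and in each of the other 12 tissues (grey). Testis is at the low end for 40S ribosomal proteins S27 and S14, ADP/ATP translocase 2, Cytochrome c oxidase subunit 5B, Cornifelin, RXR-gamma-A and GTP cyclohydrolase 1 feedback regulatory protein, and Cholesterol side-chain cleavage enzyme is far below head kidney (0.365 against 37.1 FPKM). For that enzyme testis is still above the median of the other 12 tissues.

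Taken pair by pair, testis was closest to kidney. Over transcripts with at least 10 fragments in either library, 26.6% lay within 2-fold in testis and kidney, against 23.8% for gill, 23.4% for head kidney, 19.0% for brain and 12.2% for liver. At least 5-fold higher in testis than in kidney were 3448 transcripts (16.4%), and 4937 (23.4%) were at least 5-fold lower. Against brain 3462 (13.4%) were higher and 10779 (41.8%) lower, and against liver 10203 (56.2%) were higher and 1541 (8.48%) lower. These counts and shares are given with library totals only. The size factor relative to the library total was 1.29 in testis, 1.37 in kidney, 1.33 in brain and 0.227 in liver. With size factors the log2 ratio of testis would shift most against liver, by -2.50, so the values against liver depend on the scaling. Spearman's rho of FPKM over 31051 transcripts with at least 1 FPKM in some tissue was 0.73 with kidney, 0.65 with head kidney and 0.43 with brain, the lowest. Of the 13 tissues brain had the lowest mean rho with the other 12, 0.46, so a low rho with brain was not particular to testis. Without the testis-leading transcripts rho was 0.73 with kidney and 0.67 with both head kidney and gill. Transcripts are not independent replicates, and rho is given as a description.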

How the data were processed

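RNA-seq was made from 13 tissues of 1 male pike. The authors trimmed reads with Trimmomatic, assembled them with Trinity and deposited 2 values per transcript and tissue, a count of fragments that is not normalized and an FPKM. The sources used here do not give the mapping program. FPKM was used as deposited. Ratios were calculated from counts over library totals, which equals the ratio of unrounded FPKM, with exact Poisson intervals of 95% and exact conditional (Clopper-Pearson) intervals of ratios. No p-value was calculated. Reads were counted without molecular identifiers.

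Names were copied from the authors' supplementary table of Trinity transcripts, where 1920 of the 1999 rows at hand matched exactly 1 transcript by all 13 counts and FPKM values (79 matched several), and from models of their MAKER2 table paired with a transcript within 2 fragments or 2%, with at least 100 fragments and lengths within 20% (140 named pairs, and 5 of 5 shared names were the same). The MAKER2 table was at hand for its first 1999 rows. Neither table's values were used otherwise. Lengths came from counts and FPKM.

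Transcripts were named in the text if they belonged to the lists for meiosis, germ line RNA, sperm and testis, cell cycle, replication and repair, or histones with at least 10 testis fragments, were among the 4 of each other list with the highest testis FPKM, the 20 named testis-leading transcripts with the highest FPKM, the 10 with the largest lower bound of the ratio or the 6 farthest below other tissues, or were cell type markers. Members near 0 in testis, and Zinc finger protein SNAI2, were named after their values were seen. The members and lists were chosen with earlier results of these data known, and the name patterns behind the lists were completed after the files were read. The germ line RNA list had 0 members. Alternatives were other scalings, count minimums, folds and left-out tissues. Calculations were tested on simulated data and were run with scipy 1.17.1, pandas 2.3.3 and numpy 2.4.6 in Python 3.11.15, with plots by matplotlib 3.10.9.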

Additional observations from a re-analysis of the deposited data

How the results depend on the processing

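Of 28 alternatives, 1 of them (leaving out both kidney and head kidney) chosen after seeing the data, 19 left the value within 1.5-fold. Among the 19, a minimum of 1 testis fragment could not change the 1265 testis-leading transcripts. The floor holds any transcript with under 10 testis fragments below 5-fold. The number of testis-leading transcripts was 594 with upper quartile scaling, 3405 at 2-fold and 563 at 10-fold, and 978 with median-of-ratios size factors, of which 914 were among the 1265. Upper quartile scaling gave 3721 transcripts highest in testis. Transcripts read in testis only numbered 11 with at least 20 fragments, 101 with up to 3 fragments elsewhere and 58 without kidney. Those at least 5-fold below the other tissues numbered 382 with size factors, and 407 passed at 2-fold. Under size factors 29 named transcripts were testis-leading in place of 44, and 27 of them were among the 44. The kidney level of the abundant testis transcripts kept between 5.10% and 5.91% of testis. Without kidney 1463 transcripts were testis-leading. No paired analysis was possible because each tissue has 1 library. Transcripts with few testis fragments are limited by depth, since a floor of 3 fragments caps their ratio.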
